A study of Mus musculus with 6 samples.

Results

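The p53 family and its closest regulators were followed by PRO-seq, which maps engaged RNA polymerases through the biotin-labelled nascent RNA that they extend in a nuclear run-on. The genes were taken by name, with no threshold on their values. They were the family members *Trp53*, *Trp63* and *Trp73*, the p53 inhibitors *Mdm2* and *Mdm4*, the phosphatase *Ppm1d* and the deubiquitinase *Usp7*. Of these 7 genes, 6 had a row among the 14546 genes of the table, and *Trp73* was not analysed here. The cells were proliferating muscle stem cells (MuSCs, the satellite cells of skeletal muscle) from C57BL/6 mice of either sex aged 8 to 12 weeks. In the 3 Ctrl libraries the genotype was Pax7CreERT/Suv4-20h1WT, and in the 3 *Kmt5b* sKO libraries it was Pax7CreERT/Suv4-20h1KO. Suv4-20h1 is the older name of *Kmt5b*, a methyltransferase that converts monomethylated lysine 20 of histone H4 into the dimethylated form. Both groups thus carried the tamoxifen-inducible Cre under control of *Pax7*, which directs the deletion to satellite cells, and tamoxifen was given to the mice. MuSCs were purified with magnetic beads and grown on Matrigel with serum, LIF and bFGF, so that the libraries describe cultured cells. The comparison asked how transcription of the p53 network differs when KMT5B is lost.

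p53 is a transcription factor that is made all the time and is held at a low level because MDM2, a ubiquitin ligase, marks it for degradation. MDM4, a relative of MDM2 with little ligase activity of its own, binds the transactivation domain of p53 and pairs with MDM2. USP7 removes ubiquitin from MDM2 as well as from p53, and PPM1D (WIP1) dephosphorylates p53 and the kinases that activate it. *Mdm2* and *Ppm1d* are themselves activated by p53, which closes negative feedback loops. p63 is best known from the basal layer of stratified epithelia and is made from separate start sites as a TA form with, or as a ΔN form without, the N-terminal transactivation domain. In satellite cells p53 is known for the arrest and senescence of damaged cells.

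*Mdm2* is known to be transcribed from a constitutive start, P1, and from a p53-dependent start, P2, at the end of intron 1. The listed isoform lies on the minus strand of GRCm38 chromosome 10 from 117688875 to 117710758, has 12 exons and starts at P1. Position 1 below is its first base. As the TSS region is the first 400 nt, it ends before the P2 segment, and polymerases that start there are counted in the gene body. The 3 other starts annotated in this intron belong to transcripts that are not protein-coding and lie 466, 680 and 736 nt downstream of the first base. The following 120 bases of intron 1 (positions 586 to 705, chr10:117710054-117710173, minus strand) are shown because the p53-bound segment is placed there. Capitals mark matches to the p53 half-site, first a pair of half-sites without a spacer and with 3 mismatches in all (positions 635 to 654), then a single half-site with 1 mismatch (positions 683 to 692).

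Mdm2 intron 1: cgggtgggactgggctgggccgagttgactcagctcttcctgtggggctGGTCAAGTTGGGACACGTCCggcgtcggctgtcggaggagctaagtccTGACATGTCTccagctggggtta

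The half-site is palindromic, so both strands give the same matches, and the central C and G of each half-site were required. The window from position 436 to 735 was set on *Mdm2*, so that it ends before the last start annotated in its intron 1. At the same positions of each gene, a pair of this kind was found in 143 of 12446 tested autosomal genes (1.15%). Of the 6 genes only *Mdm2* held one, which the choice of window favours. Single half-sites with at most 1 mismatch are common, being present in that window of 49.9% of genes, with 2 each in *Mdm2*, *Mdm4* and *Usp7*.

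The 200 bases upstream of the listed *Trp53* start (chr11:69580159-69580358, plus strand) are shown because p53 half-sites, which overlap no other motif searched, also occur before the gene of p53 itself. The capitals mark 1 pair with 3 mismatches, from 75 to 56 bases before the start. Of all tested genes, 0.884% held such a pair in these 200 bases, and *Trp63*, *Mdm2*, *Mdm4*, *Ppm1d* and *Usp7* had none.

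Trp53 upstream: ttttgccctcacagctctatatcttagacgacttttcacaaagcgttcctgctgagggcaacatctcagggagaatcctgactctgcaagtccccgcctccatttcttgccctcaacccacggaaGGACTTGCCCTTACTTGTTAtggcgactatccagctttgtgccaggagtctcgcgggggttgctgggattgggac

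The 200 bases upstream of the *Trp63* start (chr16:25683565-25683764, plus strand) are shown because the highest ratio between the groups among the 6 genes was measured just downstream. Capitals mark a run of CT repeats of at least 32 nt, from 200 to 169 bases before the start, which begins at the edge of the window. A CT or AG run of 32 nt or more, the length being taken from this sequence, was found in the same window of 0.249% of tested genes.

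Trp63 upstream: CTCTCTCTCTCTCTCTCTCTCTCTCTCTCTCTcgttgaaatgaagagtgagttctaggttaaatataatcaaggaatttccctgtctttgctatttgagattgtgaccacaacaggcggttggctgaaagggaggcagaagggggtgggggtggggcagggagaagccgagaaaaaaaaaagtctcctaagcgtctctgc

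These matches are descriptions of letters in the reference genome and not measured sites of binding.

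The TSS region is given in RPM, which scales reads by library size, and values for the gene body, the remainder of the transcript, are TPM, scaled by length as well. The recovered whole reads over the listed genes came to between 926904 and 3246052 per library in the TSS regions and between 7425424 and 16249120 in the gene bodies. All MuSC and myoblast markers of the list (8 of 8) were listed, with a summed gene body level of 1574 to 2308 TPM in Ctrl and 2077 to 2790 TPM in *Kmt5b* sKO libraries. *Myod1* and *Des* made up most of this sum. *Pax7* was at 26 to 53.73 TPM in Ctrl and 25.5 to 29.54 TPM in *Kmt5b* sKO libraries, and each of these markers overlapped between the groups. Markers of mature fibres (8 of 8) summed to 645 to 1266 TPM in Ctrl and 1512 to 2044 TPM in *Kmt5b* sKO libraries, without overlap of the sums. *Acta1* was the largest part, with 338.24 to 684.85 TPM in Ctrl and 800.66 to 1034.07 TPM in *Kmt5b* sKO libraries. Of the single markers, *Acta1*, *Tnnt3* and *Mb* were apart between the groups, while *Myh1*, *Myh2*, *Myh4*, *Ckm* and *Pvalb* overlapped. The gene body of *Kmt5b* itself held 30.58, 35.4 and 38.47 TPM in Ctrl against 37.81, 34.99 and 42.58 TPM in *Kmt5b* sKO libraries, a level over the whole gene that does not resolve the deleted part and so checks no label. Transcription of 4 Y-linked genes was low in Ctrl 1, Ctrl 2 and *Kmt5b* sKO 3 and high in Ctrl 3, *Kmt5b* sKO 1 and *Kmt5b* sKO 2 (mean log2 values -0.61, -0.87 and 0.094 against 2.69, 3.38 and 3.44). In bulk libraries such as these, fewer cells that transcribe a gene and less transcription per cell cannot be told apart.

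Genes were compared as log2(value + 0.5) with limma over 12451 autosomal and mitochondrial genes, with a call where the p adjusted by Benjamini-Hochberg was under 0.1. All 6 genes passed the filter on low values, a mean over the 6 libraries of at least 0.5 in both regions. In the TSS region *Trp63* passed it only through the *Kmt5b* sKO libraries, as its Ctrl mean was 0.253 RPM and its *Kmt5b* sKO mean 8.53 RPM, so that a tested *Trp63* had to differ there. In the TSS region 1 of the 6 was called (*Trp63*), while 1.66% of all genes were called. In the gene body 2 of the 6 were called (*Mdm2* and *Trp63*, both higher in *Kmt5b* sKO cells), while 2.99% of all genes were called. The filter needs both regions, so the gene body test of *Trp63* rested on the same pass. Without the filter its adjusted p in the gene body was 0.113 in limma, above the threshold, so that no call was made. Without overlap between the groups were 1 of the 6 genes in the TSS region (15.6% of all genes) and 4 of the 6 in the gene body (21.4% of all genes), where *Trp53* was lower and *Trp63*, *Mdm2* and *Usp7* were higher in *Kmt5b* sKO libraries. Log2 fold changes below are mean log2 values of *Kmt5b* sKO minus Ctrl libraries, and for scattered low values their sign can differ from that of the plain means.

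*Trp53* encodes p53. Its listed isoform runs over 11 exons on the plus strand of chromosome 11 from 69580359 to 69591873, and 157 nt of the 400 nt TSS region are exonic and none coding. Its TSS region held 49.87, 33.32 and 79.18 RPM in Ctrl 1 to 3 and 24.91, 36.32 and 28.06 RPM in *Kmt5b* sKO 1 to 3. Ctrl 3 was the highest of all libraries, and *Kmt5b* sKO 2 lay above Ctrl 2, so the groups overlapped. These values rested on 206, 58 and 418 reads in Ctrl against 76, 55 and 61 reads in *Kmt5b* sKO libraries. The log2 fold change was -0.78 (SE 0.29), with an unadjusted p of 0.0144 and an adjusted p of 0.265 in limma, which misses the threshold. The call was made without Ctrl 2 (log2 fold change -1.08, adjusted p = 0.060 in limma), and without Ctrl 3 the fold change shrank to -0.47.

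The gene body of *Trp53* held 68.1, 63.71 and 69.07 TPM in Ctrl against 51.89, 63.6 and 53.57 TPM in *Kmt5b* sKO libraries. All 3 *Kmt5b* sKO values lay below all Ctrl values, although *Kmt5b* sKO 2 only just did so. The means were 67.0 ± 2.86 and 56.4 ± 6.33 TPM (SD, n = 3 each), and the log2 fold change of -0.25 (95% interval -0.55 to 0.049) had an adjusted p of 0.410 in limma. No rise of *Trp53* relative to the library was thus measured in either region, and the upper end of the gene body interval was 0.049 on the log2 scale. As RPM and TPM scale to each library, a change in transcription shared by all genes would not show in any value here. Reads from exons can also match the processed pseudogene Trp53-ps, and 14.5% of the gene body is exonic.

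*Trp63* was nearly silent in Ctrl MuSCs and was transcribed at a low level in all *Kmt5b* sKO libraries. The listed isoform has 13 exons on the plus strand of chromosome 16 from 25683765 to 25892087, and its first base is the upstream start of the TA form. The whole TSS region is exonic and noncoding. It held 0, 0.57 and 0.19 RPM in Ctrl libraries and 3.61, 7.26 and 14.72 RPM in *Kmt5b* sKO libraries. All *Kmt5b* sKO libraries were higher than all Ctrl libraries, with *Kmt5b* sKO 3 the highest at 4.08 times the value of *Kmt5b* sKO 1. Behind them were 0, 1 and 1 reads in Ctrl against 11, 11 and 32 reads in *Kmt5b* sKO libraries. Over the pooled reads, 2 against 54, the depth-corrected rate was 44.7 times higher in *Kmt5b* sKO (exact 95% interval 11.8 to 378, counting error only). On the log2(RPM + 0.5) scale, which understates changes of low genes, the log2 fold change was 3.45 (SE 0.62) with an adjusted p of 0.0289 in limma, rank 9 of 12451 genes. Without Ctrl 1 or without *Kmt5b* sKO 3 it was 3.19 and 2.98. The adjusted p then rose to 0.174 and 0.135 in limma, above the threshold, so that the call was lost. Without the filter on low values the adjusted p was 0.271 in limma. As *Trp63* passed that filter only through the *Kmt5b* sKO libraries, its adjusted p and rank above are descriptions and no separate support for a difference.

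The gene body of *Trp63* held 0.27, 0.88 and 0.82 TPM in Ctrl against 1.98, 3.84 and 7.6 TPM in *Kmt5b* sKO libraries. Again the groups were apart and *Kmt5b* sKO 3 was the highest. As the gene body is 207923 nt long, even the lowest level stood on about 82 reads, and the *Kmt5b* sKO libraries held about 458, 523 and 1507, each known to within 0.681 to 1.52 reads because 1 read is worth less than the printed step of 0.01 TPM. The log2 fold change was 1.99 (SE 0.45, adjusted p = 0.0985 in limma), just inside the threshold. Leaving out any library other than Ctrl 3 ended this call (adjusted p 0.132 to 0.266 in limma, log2 fold change 1.55 to 2.41). The start shared by 4 shorter protein-coding transcripts, the ΔN form, lies 118151 nt downstream of the listed start, so that the last 43.4% of the gene body can hold reads from either form. An intronic processed pseudogene on the same strand, Gm27005, also lies within the gene body.

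Markers of stratified epithelium, the cells best known for p63, were set beside these values. Of 12 markers, *Itgb4*, *Grhl3*, *Cdh1*, *Dsg3* and *Col17a1* were listed, and keratin genes such as *Krt5* and *Krt14* were not analysed here. The 5 listed markers summed to 22.7 to 37.5 TPM in Ctrl and 40.4 to 56.2 TPM in *Kmt5b* sKO libraries, and none was at 0 in any library. *Itgb4*, an integrin of hemidesmosomes that is not confined to the skin, made up most of this sum, with 13.93 to 27.77 TPM in Ctrl and 25.6 to 42.2 TPM in *Kmt5b* sKO libraries. *Cdh1* (E-cadherin) was at 1.47 to 2.69 TPM in Ctrl and 3.81 to 3.99 TPM in *Kmt5b* sKO libraries, and *Grhl3* at 4.29 to 6.61 and 8.33 to 15.65 TPM. *Dsg3* (0.4 to 2.22 TPM in Ctrl and 1.1 to 1.34 TPM in *Kmt5b* sKO) and *Col17a1* (0.29 to 0.8 and 0.71 to 1.36 TPM) overlapped between the groups, as did *Itgb4*. Schwann cell markers (4 of 4 listed) also moved with the groups, from 8.75 to 11.7 TPM in Ctrl to 15.8 to 25.8 TPM in *Kmt5b* sKO libraries, with *S100b* at 0 in Ctrl 1. Markers of fibro-adipogenic cells (3 of 6 listed, 4.86 to 9.78 and 5.17 to 7.56 TPM) and of macrophages and other leukocytes (3 of 6 listed, 220.5 to 445.8 and 334.1 to 350.0 TPM) overlapped between the groups. *Cd68* made up most of the leukocyte sum, with 213.66 to 401.66 TPM in Ctrl and 319.15 to 325.61 TPM in *Kmt5b* sKO libraries. *Itgam* was at 0.31 to 0.58 TPM in Ctrl and 0.54 to 0.65 TPM in *Kmt5b* sKO libraries. Endothelial markers (3 of 5 listed) summed to 2.5 to 4.23 TPM in Ctrl and 4.38 to 5.05 TPM in *Kmt5b* sKO libraries. The part of these cell types, and of the fibre markers given above, in the *Trp63* values was not tested.

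*Mdm2* showed the highest gene body level of the 6 genes and rose in *Kmt5b* sKO cells. Its gene body held 96.78, 114.21 and 140.3 TPM in Ctrl against 221.27, 238.85 and 210.02 TPM in *Kmt5b* sKO libraries. Every *Kmt5b* sKO library was well above every Ctrl library. The means were 117 ± 21.9 and 223 ± 14.5 TPM (SD, n = 3 each), a ratio of 1.91. The log2 fold change was 0.94 (SE 0.17, 95% interval 0.55 to 1.33, adjusted p = 0.0679 in limma), rank 117 of all genes. Without any 1 library the log2 fold change was 0.81 to 1.08, yet the call was lost without each library other than Ctrl 3 (adjusted p 0.107 to 0.228 in limma).

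At the P1 start no difference was detected. The TSS region of *Mdm2* held 166.55, 166.62 and 213.86 RPM in Ctrl against 191.43, 224.52 and 254.82 RPM in *Kmt5b* sKO libraries. The groups overlapped, as *Kmt5b* sKO 1 lay below Ctrl 3. The log2 fold change was 0.29 (SE 0.21, 95% interval -0.15 to 0.74, adjusted p = 0.698 in limma). Of the TSS region, 207 nt are exonic and none coding, and the half-site pair printed above begins 235 nt past its end.

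The pausing index divides the TSS value by the gene body value, and a lower index means fewer polymerases near the start for each one in the gene body. The index of *Mdm2* was 1.72, 1.46 and 1.52 in Ctrl against 0.865, 0.940 and 1.21 in *Kmt5b* sKO libraries, without overlap. Its log2 fold change was -0.65 (SE 0.25), with an unadjusted p of 0.0294 and an adjusted p of 0.9997 in limma. Of 11698 genes with values above 0 in every library, 0 were called (0%) in limma, while 452 had an unadjusted p under 0.05. *Mdm2* was 1 of 4 genes of the network that could be fitted and the only one of these whose groups did not overlap, as in 9.02% of all genes. *Trp53* had an index of 0.732, 0.523 and 1.15 in Ctrl against 0.480, 0.571 and 0.524 in *Kmt5b* sKO libraries (log2 fold change -0.54, SE 0.35, adjusted p = 0.9997 in limma). For *Mdm4* the index was 1.41, 1.32 and 1.49 in Ctrl against 1.54, 1.30 and 1.25 in *Kmt5b* sKO libraries (log2 fold change -0.048, SE 0.23). *Ppm1d* had the highest index of the 4, at 3.28, 3.58 and 2.88 in Ctrl against 2.27, 3.08 and 3.38 in *Kmt5b* sKO libraries (log2 fold change -0.17, SE 0.24). *Trp63* and *Usp7* were left out of this fit because a Ctrl library was listed at 0.

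**Figure D1:**
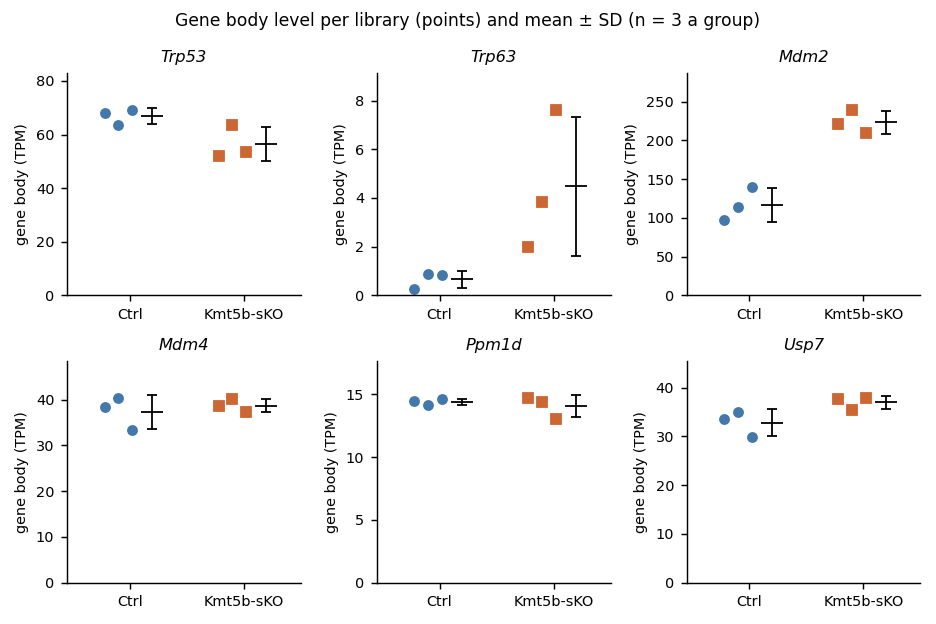
Gene body level in TPM (vertical axes, each from 0) of the 6 genes in the 3 Ctrl libraries (circles) and 3 *Kmt5b* sKO libraries (squares), in the order of replicates 1 to 3, with mean and SD in black. *Mdm2* lies between 96.78 and 140.3 TPM in Ctrl and between 210.02 and 238.85 TPM in *Kmt5b* sKO libraries, *Trp63* is below 1 TPM in all Ctrl libraries, and *Mdm4* and *Ppm1d* overlap between the groups.

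**Figure D2:**
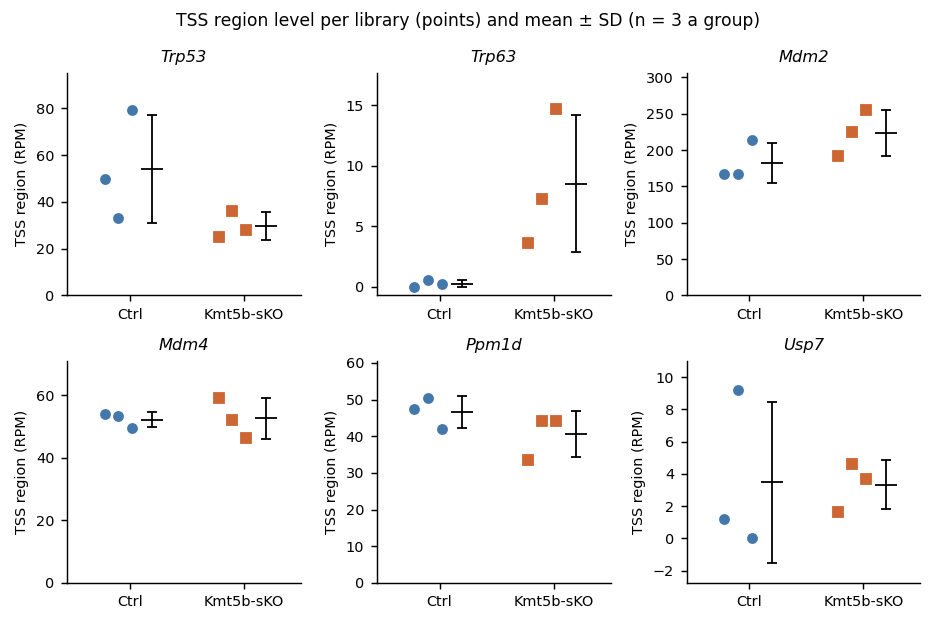
TSS region level in RPM (vertical axes) of the same genes and libraries, with mean and SD in black. *Trp63* separates the groups, *Trp53* runs from 33.32 to 79.18 RPM in Ctrl libraries, and *Usp7* is near the limit of detection, with an SD that reaches below 0 in Ctrl.

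For *Mdm4*, the partner of *Mdm2*, no difference was detected. Its listed isoform lies on the minus strand of chromosome 1 from 132986220 to 133025416, with 11 exons. The gene body held 38.35, 40.44 and 33.26 TPM in Ctrl against 38.59, 40.06 and 37.21 TPM in *Kmt5b* sKO libraries. The groups overlapped, and the log2 fold change was 0.052 (95% interval -0.24 to 0.34, adjusted p = 0.898 in limma). The TSS region was as even, with 53.98, 53.43 and 49.44 RPM in Ctrl against 59.33, 52.17 and 46.46 RPM in *Kmt5b* sKO libraries. Here the log2 fold change was 0.0041 (95% interval -0.46 to 0.47, adjusted p = 0.996 in limma), and its sign turned with the scaling, being -0.059 with libraries centred on their median. Reads from the exons, 17.9% of the gene body, can also match the pseudogene Mdm4-ps.

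*Ppm1d*, a p53 target whose product dampens the p53 response, lies on the plus strand of chromosome 11 from 85311244 to 85347066 and has 6 exons. The gene body held 14.48, 14.11 and 14.6 TPM in Ctrl against 14.73, 14.35 and 13.05 TPM in *Kmt5b* sKO libraries. *Kmt5b* sKO 3 was the lowest and the other libraries lay within 1 TPM of each other. The log2 fold change was -0.036 (95% interval -0.33 to 0.26, adjusted p = 0.934 in limma). Its TSS region, all exonic with 171 coding nt, held 47.45, 50.56 and 42.05 RPM in Ctrl against 33.44, 44.24 and 44.16 RPM in *Kmt5b* sKO libraries. The groups overlapped (log2 fold change -0.21, SE 0.23, adjusted p = 0.837 in limma).

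*Usp7* (31 exons, minus strand of chromosome 16 from 8690146 to 8738342) was transcribed at 33.52, 35.1 and 29.79 TPM in the gene body of Ctrl and at 37.64, 35.49 and 37.96 TPM in that of *Kmt5b* sKO libraries. All *Kmt5b* sKO values were above all Ctrl values, with a gap of 0.39 TPM. The difference was small, with a log2 fold change of 0.18 (95% interval -0.11 to 0.46) and an adjusted p of 0.563 in limma. The TSS region of this gene held few reads in every library, 5, 16 and 0 in Ctrl against 5, 7 and 8 in *Kmt5b* sKO libraries, or 1.21, 9.19 and 0 RPM and 1.64, 4.62 and 3.68 RPM. Another protein-coding start of *Usp7* is annotated upstream, at position 8792308, and polymerases near that start are not counted in this TSS region. With the lowest and the highest value both in Ctrl libraries, no difference was detected in the listed region (log2 fold change 0.82, SE 0.80, adjusted p = 0.801 in limma). The plain means ran the other way (3.47 RPM in Ctrl, 3.31 RPM in *Kmt5b* sKO), and the sign of the log2 fold change turned to -0.19 without Ctrl 3. In Ctrl 3 a count of 0 allows up to 0.568 RPM, and in Ctrl 1 the 0 reads of *Trp63* allow up to 0.726 RPM.

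**Figure D3:**
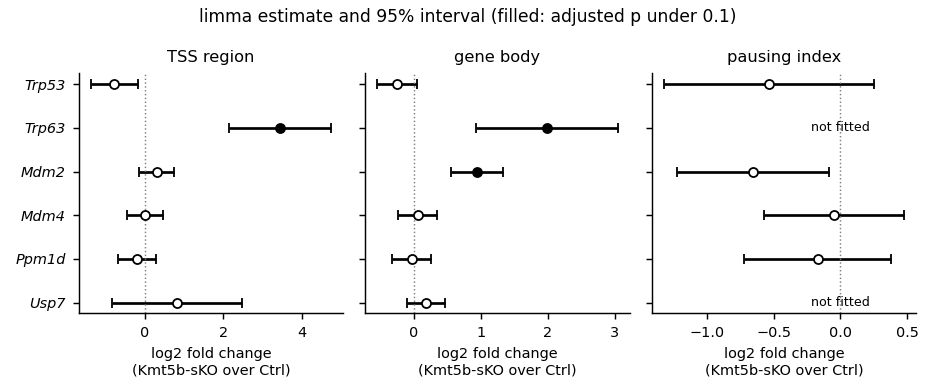
Log2 fold change of *Kmt5b* sKO over Ctrl (horizontal axes, of different range in each panel) with its 95% interval from limma, for the TSS region, the gene body and the pausing index. Filled points mark adjusted p under 0.1, which are *Trp63* in the TSS region (3.45) and *Trp63* (1.99) and *Mdm2* (0.94) in the gene body, and *Trp63* and *Usp7* were not fitted for the pausing index.

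Per length, the order of the gene body levels was the same in both groups, namely *Mdm2*, *Trp53*, *Mdm4*, *Usp7*, *Ppm1d* and *Trp63*. In Ctrl the mean levels were 117, 67.0, 37.4, 32.8, 14.4 and 0.657 TPM, and in *Kmt5b* sKO they were 223, 56.4, 38.6, 37.0, 14.0 and 4.47 TPM. *Mdm4* and *Usp7* overlapped in both groups, and all other neighbours in this order were apart in each group. In the TSS regions, which share 1 length, *Mdm2* was highest in both groups (182 and 224 RPM on average). *Trp53*, *Mdm4* and *Ppm1d* overlapped in Ctrl at 54.1, 52.3 and 46.7 RPM, and in *Kmt5b* sKO *Trp53* was at 29.8 RPM, *Mdm4* at 52.7 RPM and *Ppm1d* at 40.6 RPM. *Usp7* had the lowest mean of the group after *Trp63* in Ctrl and the lowest in *Kmt5b* sKO (3.47 and 3.31 RPM). Its pausing index, which covers the listed start only, was at most 0.262 in any library.

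The balance between *Mdm2* and the genes it acts with differed between the groups. The gene body level of *Mdm2* was 1.42, 1.79 and 2.03 times that of *Trp53* in Ctrl and 4.26, 3.76 and 3.92 times in *Kmt5b* sKO libraries. Relative to *Mdm4* it was 2.52, 2.82 and 4.22 times as high in Ctrl and 5.73, 5.96 and 5.64 times in *Kmt5b* sKO libraries. Neither ratio overlapped between the groups. Being built from levels described above, the ratios were not tested.

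**Figure D4:**
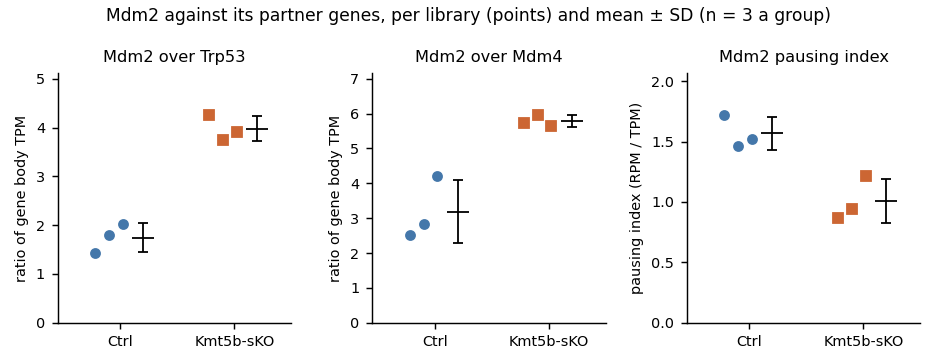
Ratio of the *Mdm2* gene body level to that of *Trp53* (left) and of *Mdm4* (middle), and *Mdm2* pausing index (right), in 3 Ctrl (circles) and 3 *Kmt5b* sKO (squares) libraries with mean and SD in black, all axes from 0. The *Mdm2* to *Trp53* ratio is at most 2.03 in Ctrl and at least 3.76 in *Kmt5b* sKO libraries, and the pausing index is lower in all *Kmt5b* sKO libraries.

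Differences were also taken within the libraries of low Y-linked transcription, where *Kmt5b* sKO 3 stands alone against 2 Ctrl libraries, and of high Y-linked transcription, where Ctrl 3 stands alone against 2 *Kmt5b* sKO libraries. With 1 library on a side these are values with no test. The log2 difference of the *Mdm2* gene body was 0.99 in the low and 0.71 in the high libraries, and that of *Trp63* was 2.97 and 1.31. In the TSS region *Trp63* differed by 4.38 and 3.03 and *Trp53* by -0.53 and -1.38. With Y-linked transcription as a covariate, the TSS region of *Trp53* passed the threshold (log2 fold change -1.09, adjusted p = 0.039 in limma), and *Trp63* and *Mdm2* kept their calls. *Mdm2* in the TSS region was the exception in sign among these 3 genes, with 0.61 in the low and -0.045 in the high libraries.

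Genes that act on p53 from above were given by a list of 40 symbols, 2 of which, *Rfwd2* and *Cop1*, name the same ubiquitin ligase, listed as *Rfwd2*. The list holds kinases, acetyltransferases, methyltransferases, ubiquitin ligases, deubiquitinases and cofactors of p53. Of the 39 genes 38 were tested, since *Huwe1* lies on chromosome X, and in limma neither region had a called gene (0 and 0). At an unadjusted p under 0.05, 0 were higher and 3 lower in the TSS region (*Chek2*, *Atm* and *Kmt5a*), and 4 were higher (*Usp2*, *Dyrk2*, *Cdk9* and *Ppp1r13l*) and 3 lower (*Chek1*, *Mtbp* and *Atm*) in the gene body. Of all 12451 genes, 1369 TSS regions and 1981 gene bodies passed this unadjusted level, so these counts are near the background and are no result about the list. Over the list the log2 fold changes had medians of 0.021 (TSS region) and 0.016 (gene body), beside 0.081 and 0.023 over all genes.

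From this list 3 genes were followed by their place in the list. *Atm*, the kinase that signals double-strand breaks to p53, had a gene body level of 7.1, 7.91 and 9.35 TPM in Ctrl against 5.95, 6.66 and 4.31 TPM in *Kmt5b* sKO libraries, all below Ctrl (log2 fold change -0.50, SE 0.20, adjusted p = 0.291 in limma). *Atr*, the kinase of stalled replication forks, was at 7.14, 7.5 and 10.08 TPM in Ctrl against 7.15, 7.48 and 5.24 TPM in *Kmt5b* sKO libraries, with overlap (log2 fold change -0.29, SE 0.20, adjusted p = 0.563 in limma). *Chek1*, which acts below *Atr*, was at 11.88, 11.32 and 21.18 TPM in Ctrl against 8, 11.42 and 6.43 TPM in *Kmt5b* sKO libraries, where Ctrl 3 stood out (log2 fold change -0.73, SE 0.29, adjusted p = 0.292 in limma).

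Genes that p53 is known to activate were given by a list of 40, of which 38 were listed and tested. In the gene body 3 of 38 (7.89%) were called, all higher in *Kmt5b* sKO cells, and in the TSS region 1 of 38 (2.63%). These shares stand beside the 2.99% and 1.66% of all genes given above. In the gene body 31 of the 38 had a positive and 7 a negative log2 fold change, with a median of 0.42 beside 0.023 over all genes. Of all genes, 53.8% had a positive log2 fold change in the gene body. At an unadjusted p under 0.05, 18 were higher and 0 lower in the gene body, and 12 higher and 0 lower in the TSS region, while 1981 of all 12451 genes (15.9%) in the gene body and 1369 of 12451 in the TSS region passed this level in either direction. The median in the TSS region was 0.39, beside 0.081 over all genes.

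The called targets were *Trp53inp1*, *Tob1* and *Ccng1*. *Trp53inp1*, which promotes arrest and death together with p53, rose from 12.31, 24.48 and 17.95 TPM in Ctrl to 45.93, 36.45 and 47.43 TPM in *Kmt5b* sKO libraries (log2 fold change 1.27, SE 0.25, adjusted p = 0.075 in limma). *Tob1*, an antiproliferative protein, rose from 73.42, 83.48 and 74.19 TPM to 147.75, 111.53 and 189.73 TPM (log2 fold change 0.92, SE 0.20, adjusted p = 0.090 in limma). *Ccng1*, a cyclin that takes part in the MDM2 feedback, rose from 39.78, 51.94 and 45.01 TPM to 96.34, 72.26 and 73.19 TPM (log2 fold change 0.81, SE 0.17, adjusted p = 0.080 in limma). For each of the 3 the groups were apart. *Ccng1* was also called in the TSS region, where it held 73.59, 89.06 and 113.28 RPM in Ctrl against 196.68, 153.86 and 160.98 RPM in *Kmt5b* sKO libraries (log2 fold change 0.90, SE 0.22, adjusted p = 0.070 in limma).

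Others of the list, taken by their place in it, did not pass. *Cdkn1a*, which encodes the cell cycle inhibitor p21, had a gene body level of 462.3, 600.29 and 477.78 TPM in Ctrl against 859.24, 706 and 968.57 TPM in *Kmt5b* sKO libraries. Its groups were apart, with a log2 fold change of 0.72 (SE 0.21, adjusted p = 0.152 in limma). *Bbc3*, which encodes the pro-apoptotic protein PUMA, held 38.15, 29.28 and 66.31 TPM in Ctrl against 44.71, 43.81 and 44.68 TPM in *Kmt5b* sKO libraries, with overlap (log2 fold change 0.078, SE 0.27, adjusted p = 0.935 in limma, with plain means of 44.6 and 44.4 TPM). *Bax*, which permeabilises mitochondria, held 60.38, 68.8 and 65.01 TPM in Ctrl against 73.64, 74.09 and 77.73 TPM in *Kmt5b* sKO libraries (log2 fold change 0.22, SE 0.12, adjusted p = 0.439 in limma).

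The call counts of this list depended on single libraries. In the gene body 0 of the 38 were called without Ctrl 1 or without any of the *Kmt5b* sKO libraries, 5 without Ctrl 2 and 9 without Ctrl 3. In the TSS region 2 were called without Ctrl 2, 4 without Ctrl 3 and 0 without each of the others.

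**Figure D5:**
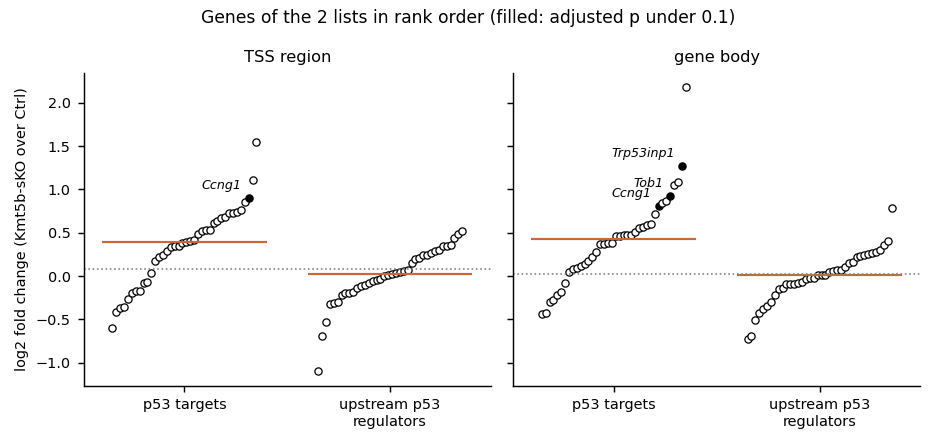
Log2 fold change of *Kmt5b* sKO over Ctrl (vertical axis) for the 38 tested p53 targets and 38 tested upstream regulators, in rank order, in the TSS region and the gene body. Orange lines are the medians of the lists (0.39 and 0.42 for the targets, 0.021 and 0.016 for the regulators), dotted lines those of all genes (0.081 and 0.023), and filled points mark adjusted p under 0.1.

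The gene bodies whose log2 levels followed *Trp53* most closely over the 6 libraries were those of *Ddb2* (Pearson's r = 0.996), *Qsox2* (0.993) and *Hist1h3f* (0.987). *Ddb2* encodes a DNA damage recognition protein and is in the list of p53 targets, where its gene body level was 2.74, 2.49 and 2.8 TPM in Ctrl against 1.53, 2.41 and 1.74 TPM in *Kmt5b* sKO libraries. As for *Trp53*, *Kmt5b* sKO 2 lay closest to the Ctrl libraries. For *Mdm2* they were *Scml4* (0.993), *Pcdhb5* (0.988) and *Zfp385a* (0.987). These correlations are descriptions over 6 points that fall into 2 genotypes and share library depth, and r was over 0.95 for 36 genes with *Trp53* and for 62 with *Mdm2*.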

How the data were processed

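PRO-seq libraries of 3 Ctrl and 3 *Kmt5b* sKO samples were used. Per their methods, the authors used Trimmomatic 0.39 for trimming and STAR 2.6.1d for alignment to GRCm38 (1 random position for reads that match several), with Picard 2.18.16 against duplicates, and counted sense reads in the first 400 nt and in the rest of each isoform of protein-coding genes, keeping 1 isoform per gene. The deposited TSS region values are headed TPM, but at equal region length they are RPM, and the authors' gene body values are TPM. Tests planned for TPM were applied to both.

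Whole reads were recovered from the deposited RPM steps (100% whole within 0.0055 RPM plus 1e-05 of the value, in each library). Gene body reads were recovered from the deposited TPM and length, and are estimates for the 5.94% to 17.5% of genes in which 1 read is worth under the printed step of 0.01 TPM, *Trp63* included. Both served the count tests. Genes outside X and Y whose TSS and gene body means both reached 0.5 were tested on log2(value + 0.5) with limma 3.58.1 (eBayes with a trend, genotype as the only term, Benjamini-Hochberg adjusted p under 0.1) in R 4.3.3. The pausing index was tested as a log2 ratio without a pseudocount. Alternatives were pseudocounts of 0.1 and 1, no filter, X and Y kept, eBayes without a trend, median centring, a replicate block, each library left out, an adjusted p under 0.05, edgeR 4.0.16 and DESeq2 1.42.0. The Y-linked covariate was chosen after seeing the data.

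All members of the network were named, with called list genes and 3 more of each list by position, and any other gene was picked with its values in view. The genes and lists were chosen with earlier results of these data known. The replicates are described as biological. The limma p-values set the difference between the groups against the spread between these samples, moderated over all tested genes. Same-numbered libraries deviated in opposite directions (r -0.329 to -0.034), so the numbers were not taken as pairs. Exons and other starts came from GENCODE at the same build, where all 6 isoforms had the listed coordinates, and sequences from the RefSeq genome of GRCm38. The limma steps were tested on simulated data. Figures were drawn with matplotlib 3.10.9 in Python 3.11.15.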

Additional observations from a re-analysis of the deposited data

How the results depend on the processing

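The direction of the 3 called differences held under all 17 alternatives, with log2 fold changes of 0.79 to 1.08 for the *Mdm2* gene body, 1.55 to 2.75 for that of *Trp63* and 2.77 to 5.42 for the TSS region of *Trp63*, but their calls were fragile. No filter, X and Y kept, no trend, the replicate block and the threshold of 0.05 leave the fold change as it is. Groups without overlap also cannot turn in sign when 1 library is left out, so the kept direction adds little in those settings. In the gene body 2 genes of the network were called, and 1 with a pseudocount of 0.1 or 1 or without the filter, 0 with an adjusted p under 0.05, 0 with the replicate number as a block (adjusted p = 0.247 for *Mdm2* and 0.244 for *Trp63* in limma), and 0 to 2 with single libraries left out. In the TSS region 1 was called, and 0 without the filter, without a trend or with the replicate block, 2 with the Y-linked covariate, and 0 to 2 with single libraries left out. p53 targets called in the TSS region (1) became 0 without the filter, without a trend, with centring, with the block, at 0.05 or with edgeR, 6 with the covariate, and 0 to 4 with single libraries left out. In the gene body (3) they became 0 with the block or at 0.05, 7 with edgeR, 12 with DESeq2, 8 with the covariate, and 0 to 9 with single libraries left out. Upstream regulators called in the TSS region (0) became 1 with centring, edgeR or DESeq2, and in the gene body (0) became 1 with edgeR, 3 with DESeq2, 5 with the covariate, and 0 to 1 with single libraries left out.

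Signs turned for uncalled values near 0. The TSS log2 fold change of *Mdm4* became -0.059 with centring, -0.062 with edgeR, -0.073 with DESeq2, -0.033 with the covariate, and -0.085 (without *Kmt5b* sKO 1) to 0.090 (without *Kmt5b* sKO 3) with single libraries left out. That of *Usp7* became -0.057 with DESeq2, and -0.19 (without Ctrl 3) to 1.95 (without Ctrl 2) with single libraries left out. With single libraries left out, gene body values ran from -0.028 to 0.11 for *Mdm4* and from -0.070 to 0.014 for *Ppm1d*, and the pausing index of *Mdm4* from -0.14 to 0.012.

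Over all genes, the TSS region had 207 calls, and 0 without the filter, without a trend or with the block, 64 at 0.05, 544 with the covariate, and 1 to 408 with single libraries left out. The gene body had 372 calls, and 0 with the block, 1 at 0.05, 748 with edgeR, 1295 with DESeq2, 1037 with the covariate, and 0 to 836 with single libraries left out. The cause was not tested. The 2 Ctrl reads of *Trp63* and the 0 to 16 TSS reads of *Usp7* per library limit what their folds can show.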
